A study of Mus musculus with 69 samples.

Results

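The p53 target genes described here are 10 genes that the transcription factor p53 is known to switch on in mouse cells: Cdkn1a, Ccng1, Plk2, Mdm2, Aen, Phlda3, Eda2r, Zmat3, Sesn1 and Trp53inp1. They were found by symbol among 20717 gene names over the series, and all 10 were listed in each of 3 count tables and passed the filter on low counts in each. PolyA RNA was sequenced from prostate organoids of the mouse, small clusters of epithelial cells, in 23 groups of n = 3 libraries (69 in all). The labels do not say whether the replicates of a group are separate cultures. The p-values therefore rest on the spread between libraries alone, and that spread may be technical.

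The genotype table held organoids with the genotype labels WT, PtP and TKO, each given DMSO, YAPi_NOTCHi or COMBO and collected at day 8. The PRAD and NEPC table held PRAD organoids at day 8 with DMSO, ARi, YAPi, NOTCHi, ARi_YAPi, ARi_NOTCHi, YAPi_NOTCHi or COMBO, PRAD organoids with COMBO at day 42, and 3 lines named NEPC-1, NEPC-2 and NEPC-3. The TKOM table held TKOM organoids in Matrigel, a basement membrane gel, with no day given, and in suspension at day 30. DMSO is the solvent control. The alleles behind PtP, TKO, TKOM, PRAD and NEPC, the compounds behind the agent names and the contents of COMBO are not given in the labels, nor is the number of clones behind a line. The library codes of the 3 NEPC lines begin with TKONE, and the labels do not say whether this refers to the TKO genotype. The question for these genes was how WT organoids stand against the others.

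Libraries held 18629462 to 92280307 counts in the genotype table, 22799838 to 77790816 in the PRAD and NEPC table and 31460616 to 40458465 in the TKOM table. Libraries of a group mostly differed little: the biological coefficient of variation common to all genes came to 2.37%, 3.85% and 3.63% in that order, so small changes passed the test. PRAD NOTCHi replicate 2 stood apart from its group. Its differences in counts from replicates 1 and 3 had a chi-squared per degree of freedom of 27.2 and 25.6. The median over replicate pairs of the PRAD and NEPC table was 4.95. Levels are CPM, counts relative to the scaled library total, and they are compared between groups of one table only. Of the epithelial markers, the 4 basal ones summed to 19713 to 19958 CPM in WT with DMSO, against 10333 to 10476 CPM in PtP and 8870 to 8914 CPM in TKO. The 6 luminal markers went the other way, from 4043 to 4101 CPM in WT with DMSO to 5236 to 5414 CPM in PtP and 4904 to 4992 CPM in TKO. In bulk RNA, fewer cells of a type and less RNA per cell cannot be told apart. The 2 fibroblast markers measured summed to at most 4.8 CPM in any library of the genotype and PRAD tables, and the 4 immune markers were not measured here.

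As background, p53 is encoded by Trp53 in the mouse. DNA damage, oncogene activity and other stress stabilise the protein, which binds response elements made of paired decamers near its targets and raises their transcription. Its targets arrest the cell cycle, promote cell death, repair DNA and tune metabolism, and Mdm2, itself a target, marks p53 for degradation and so closes a feedback loop. In prostate epithelium, loss of p53 function is common in advanced and neuroendocrine tumours. Some of these targets have further activators, such as the p53 relatives p63 and p73, and Sesn1 and Trp53inp1 respond to other stress pathways as well.

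Promoters were searched for the p53 decamer. RefSeq (build GRCm38.p6) gave promoter windows of 300 bases, from 250 before to 50 after a start site, for 8 of the 10 genes, in 11 windows. The decamer was searched on both strands, and matches may overlap. It was present in 6 of the 11 windows, belonging to 5 genes (both Aen windows hold the same match), against 8.36% of all 32851 windows. The windows of Phlda3, Eda2r and Plk2 held no match, nor did a further window of Cdkn1a and of Sesn1. A pair of decamers with a spacer of 0 to 13 bases was also searched, with 1 base in all allowed off. It was present in 2 of the 11 windows, 1 of Cdkn1a and 1 of Ccng1, against 1.09% of all windows. The stretches below are shown because they hold those matches, in capitals, and they read 5′ to 3′ on the strand of the gene. They lie at chr17:29090886-29090967 on the plus strand for Cdkn1a, chr11:40755442-40755501 on the minus strand for Ccng1, chr10:117710915-117710964 on the minus strand for Mdm2, chr7:78895917-78895966 on the plus strand for Aen and chr10:41887246-41887295 on the plus strand for Sesn1. A match is a description of letters, not of binding.
Cdkn1a: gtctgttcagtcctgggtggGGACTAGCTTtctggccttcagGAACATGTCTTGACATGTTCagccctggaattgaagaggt
Ccng1: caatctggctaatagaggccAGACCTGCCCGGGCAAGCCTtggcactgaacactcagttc
Mdm2: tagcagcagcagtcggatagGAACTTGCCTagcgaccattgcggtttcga
Aen: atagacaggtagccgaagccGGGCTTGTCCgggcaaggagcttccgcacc
Sesn1: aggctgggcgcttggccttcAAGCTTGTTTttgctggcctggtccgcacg

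The transcript of p53 itself was measured first. Trp53 (chr11:69580359-69591873, GENCODE M21 on GRCm38) was at 174, 165 and 169.7 CPM in the WT libraries with DMSO, at 54.3, 50.3 and 49.98 CPM in PtP and at 65.6, 64.8 and 65.4 CPM in TKO. All PtP and TKO libraries lay below all WT libraries. Its log2 fold change against WT was -1.72 ± 0.03 (SE) in PtP and -1.38 ± 0.03 in TKO, with edgeR adjusted p-values of 2.3e-35 and 8.3e-33. A mouse pseudogene, Trp53-ps, is near-identical to Trp53, so reads may have been shared between them. Transcript was therefore listed in every genotype, and these levels do not say which allele or which part of the gene it came from.

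In organoids without agents, 6 of the 10 targets were at less than 0.5 of their WT level in PtP and also in TKO: Phlda3, Ccng1, Cdkn1a, Aen, Zmat3 and Eda2r. Mdm2 and Trp53inp1 fell by smaller amounts, and Sesn1 and Plk2 rose slightly, so that all 10 passed the test in both genotypes, with 8 lower and 2 higher in each. Of the 18430 genes tested, 60.9% were called between PtP and WT (30.1% rose, 30.8% fell) and 63% between TKO and WT (32.5% rose, 30.4% fell), so a call alone sets these genes little apart. A fall of at least 2-fold was called for 5.61% of genes in PtP and 5.57% in TKO. The median log2 fold change of the 10 targets was -1.28 in PtP and -1.36 in TKO, where that of all genes tested was 0.00 and 0.01. Both comparisons use the same 3 WT libraries.

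**Figure D1:**
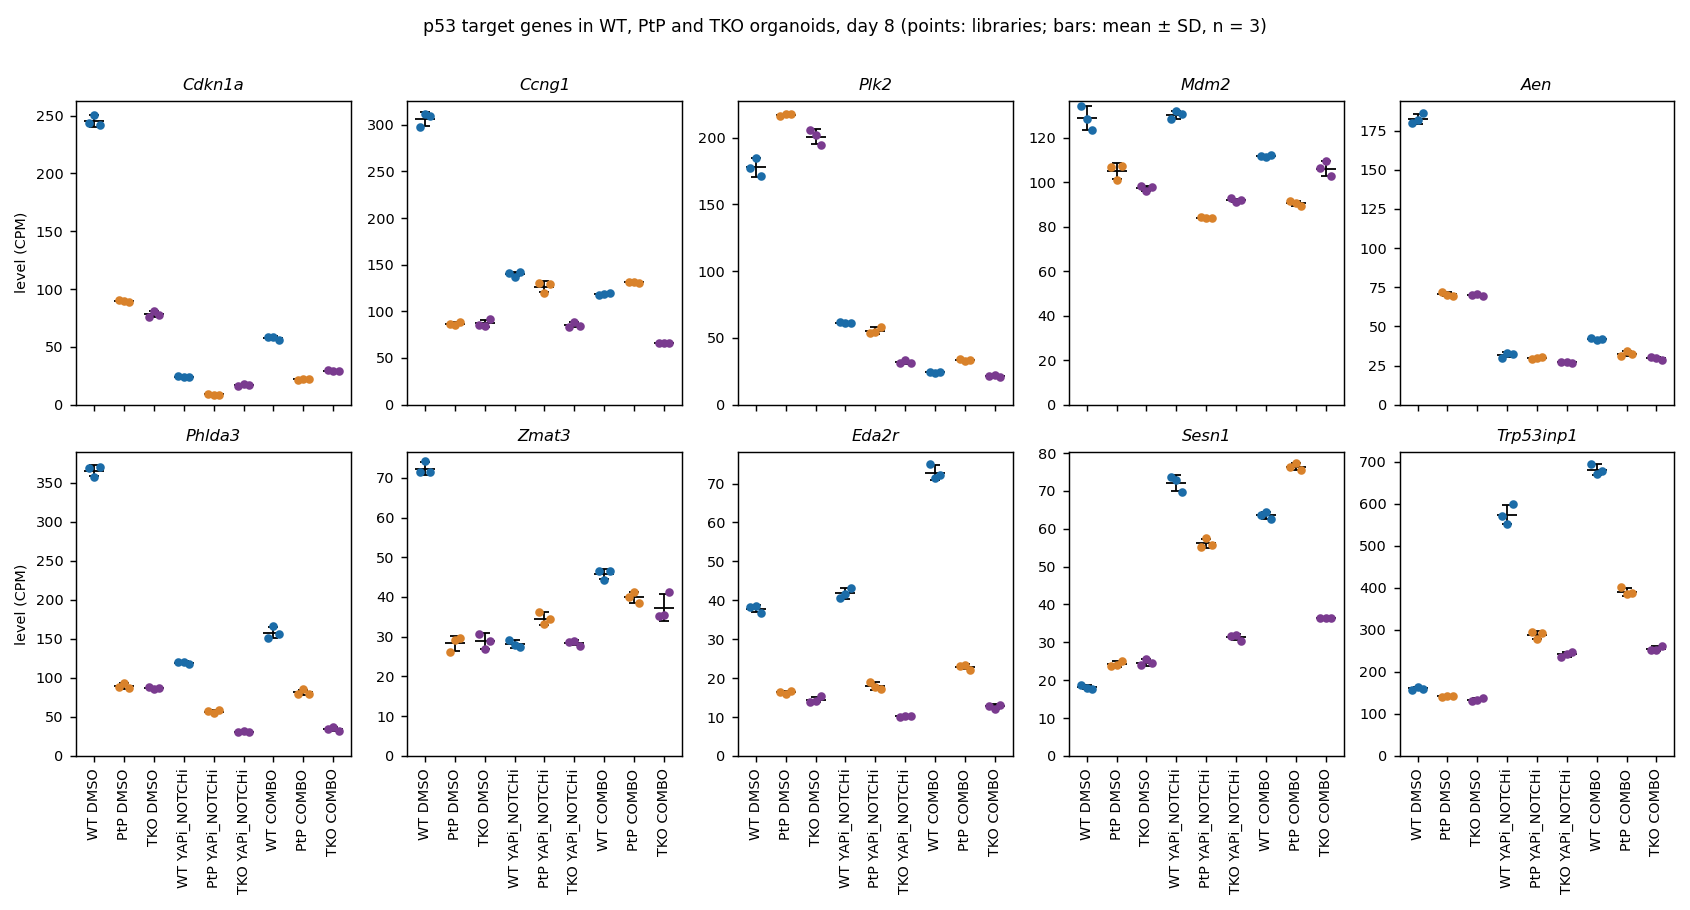
Levels of the 10 p53 target genes (CPM, y axis from 0, one panel a gene) in the 9 groups of the genotype table (x axis). Points are libraries, long dashes the mean and whiskers the SD over n = 3; for Phlda3, Ccng1, Cdkn1a, Aen and Zmat3 the 3 WT DMSO libraries stand above every other library, and Cdkn1a reaches 251 CPM there.

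Among genes that act on the cell cycle, Cdkn1a (chr17:29090976-29100727) encodes p21, an inhibitor of cyclin-dependent kinases. It was at 243, 251 and 242 CPM in WT, at 90.6, 89.3 and 88.5 CPM in PtP and at 75.7, 81.1 and 77.7 CPM in TKO. The groups did not overlap, and TKO was also below PtP. The log2 fold change against WT was -1.46 ± 0.03 in PtP (edgeR adjusted p = 7.8e-35) and -1.65 ± 0.03 in TKO (adjusted p = 7.8e-37). Ccng1 (chr11:40748552-40755311), which encodes cyclin G1, a protein that feeds back on p53 through Mdm2, was at 298, 311 and 309.6 CPM in WT. It was at 86.4, 85.3 and 88.6 CPM in PtP and at 85.7, 84.7 and 91.3 CPM in TKO. PtP and TKO libraries interleaved far below WT, with log2 fold changes of -1.82 ± 0.03 and -1.81 ± 0.03 (adjusted p = 6.7e-38 and 3.2e-38). Plk2 (chr13:110395046-110400844), a polo-like kinase, went the other way. It was at 177, 185 and 171 CPM in WT, at 216, 218 and 218 CPM in PtP and at 206, 202 and 195 CPM in TKO. Every PtP and TKO library was above every WT library, by 0.29 ± 0.03 and 0.17 ± 0.03 on the log2 scale (adjusted p = 9.2e-12 and 1.0e-06).

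Mdm2 (chr10:117688875-117710758), the ubiquitin ligase that degrades p53, was at 134, 129 and 124 CPM in WT, at 107, 101 and 107 CPM in PtP and at 98.3, 96.1 and 97.8 CPM in TKO. The WT libraries were highest without overlap, but the step was small beside that of Cdkn1a. Mdm2 fell by 0.30 on the log2 scale in PtP (SE 0.03, edgeR adjusted p = 1.7e-11) and by 0.41 in TKO (SE 0.03, adjusted p = 1.3e-15).

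Next come targets tied to cell death and survival signalling. Phlda3 (chr1:135766119-135769136), a protein that binds membrane lipids in competition with the kinase Akt, was at 369, 357 and 371 CPM in WT, at 88.7, 93.5 and 87 CPM in PtP and at 88.3, 86.2 and 87.2 CPM in TKO. WT stood far above both, and the PtP and TKO libraries overlapped, with a difference that did not pass the test. The folds were 4.07 in PtP and 4.19 in TKO (log2 -2.03 ± 0.03 and -2.07 ± 0.03, edgeR adjusted p = 9.4e-38 and 2.3e-38). Aen (chr7:78895854-78911209), a nuclease active in apoptosis, was at 179.9, 182 and 186 CPM in WT, at 72, 70.0 and 69.6 CPM in PtP and at 70.1, 71 and 69.3 CPM in TKO. Again WT was above and the other genotypes interleaved, with log2 fold changes of -1.37 ± 0.03 and -1.38 ± 0.03. Eda2r (chrX:97333840-97377216), a receptor of the tumour necrosis factor family that binds the ligand EDA-A2, was at 38.4, 38.4 and 36.8 CPM in WT, at 16.5, 16 and 16.7 CPM in PtP and at 14, 14.2 and 15.3 CPM in TKO. WT did not overlap with either, and the log2 fold changes were -1.21 ± 0.05 in PtP and -1.39 ± 0.05 in TKO.

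The targets linked to RNA control and stress parted in direction. Zmat3 (chr3:32334792-32366014), a zinc finger protein that binds RNA, was at 71.4, 74.1 and 71.5 CPM in WT, at 26.2, 29.3 and 29.7 CPM in PtP and at 30.8, 27 and 29 CPM in TKO. The WT libraries were clear of the rest, and the log2 fold changes were -1.35 ± 0.05 and -1.34 ± 0.05. Sesn1 (chr10:41809935-41908424), sestrin 1, which restrains mTORC1 when amino acids are scarce, was at 18.8, 18 and 17.7 CPM in WT, at 23.7, 24 and 25.1 CPM in PtP and at 23.9, 25.6 and 24.4 CPM in TKO. Here WT was lowest without overlap, and Sesn1 rose by 0.41 ± 0.05 in PtP and 0.45 ± 0.05 in TKO on the log2 scale (edgeR adjusted p = 3.2e-09 and 2.2e-10). Trp53inp1 (chr4:11156431-11174379), a stress protein with roles in autophagy, was at 157, 165 and 160.3 CPM in WT, at 141, 142 and 143 CPM in PtP and at 131, 133 and 139 CPM in TKO. It fell by 0.18 on the log2 scale in PtP and by 0.26 in TKO, with a SE of 0.03 in each.

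PtP and TKO were close to each other without agents. Between them 4 of the 10 targets were called, all lower in TKO, where 26.6% of all genes were called and 13.4% fell. The differences were -0.19 ± 0.03 for Cdkn1a, -0.18 ± 0.06 for Eda2r, -0.11 ± 0.03 for Mdm2 and -0.11 ± 0.03 for Plk2, on the log2 scale. Without PtP replicate 1 or 3 or TKO replicate 1 or 2, Eda2r lost its call (-0.17 to -0.18) and the count was 3. Without TKO replicate 3, Trp53inp1 was called (-0.10) and the count was 5. Trp53inp1 was also called with RLE scaling and with DESeq2 (-0.10 each) and in a fit to the compared groups (-0.08). For Ccng1, Aen, Zmat3, Phlda3, Sesn1 and Trp53inp1 the difference did not pass the test in the fit to all groups, and it lay between -0.08 and 0.03.

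**Figure D2:**
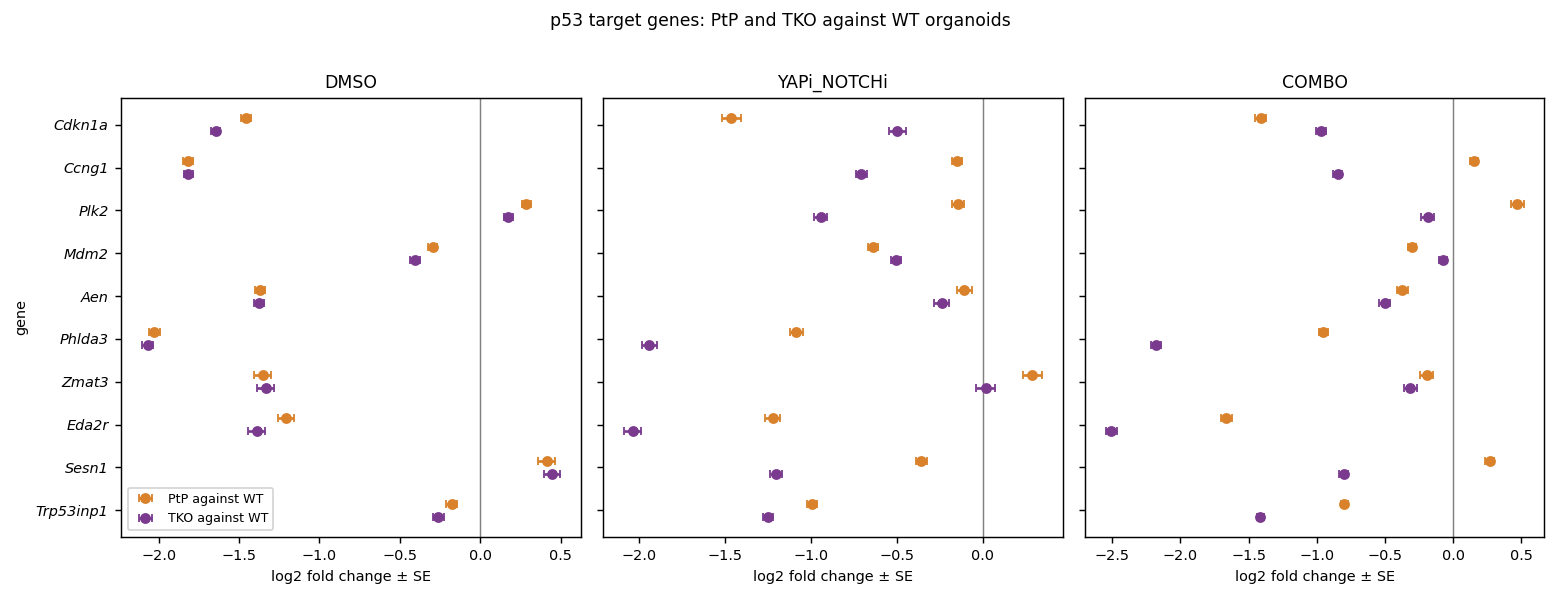
Log2 fold change (x axis) of each target gene (y axis) in PtP and in TKO against WT, with DMSO, YAPi_NOTCHi and COMBO in separate panels with their own scales; whiskers are the SE of the fit. With DMSO the PtP and TKO points nearly coincide and 8 of 10 genes lie left of 0, while with the agents the genotypes part.

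A further 27 p53 targets were drawn up from general knowledge, and all were tested here. The list was made with earlier results of these data known, so it is no independent check on the members above. In PtP against WT, 6 rose, 17 fell and 4 were not called, with a median log2 fold change of -0.37 and 6 falls of at least 2-fold. Over all genes those shares were 30.1% up, 30.8% down and 5.61% down by at least 2-fold. In TKO 5 rose, 15 fell and 7 were not called, with a median of -0.28, beside 32.5% and 30.4% of all genes. By role in PtP, 4 of 8 cell death genes, 3 of 4 DNA repair genes, 4 of 6 metabolic genes and 6 of 9 growth and other genes fell. Perp, a desmosome protein with a role in apoptosis and a known p63 target, was at 2089, 2093 and 2147 CPM in WT and at 718, 691 and 694 CPM in PtP (log2 -1.59 ± 0.02). Ddit4l, a relative of the mTOR inhibitor Ddit4, was at 6.94, 7.08 and 7.44 CPM in WT against 0.63, 0.42 and 0.586 CPM in PtP (log2 -3.70 ± 0.22). Both had WT above PtP without overlap. In the other direction Btg2, an anti-proliferative gene, was at 60.8, 60.6 and 63.8 CPM in WT and at 134, 134 and 133 CPM in PtP (log2 1.12 ± 0.03). Of the classic death genes, picked after their values were seen, Bax was at -0.28 ± 0.06 and Fas at 0.05 ± 0.16, which did not pass.

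Family members and regulators of p53 were also measured. Of these 10 genes, 4 rose, 4 fell and 2 were not called in PtP against WT, shares not far from the 30.1% and 30.8% of all genes. Trp63, which encodes the basal cell factor p63, had a WT level of 469 CPM (SD 10.2 over n = 3) against PtP at 180.1 ± 2.2 CPM and TKO at 164 ± 1.7 CPM. Trp73 stood at 50.7 ± 1.2 CPM in WT against 12.7 ± 1.3 and 13.9 ± 0.44 CPM in PtP and TKO. So both relatives that can act on the same elements were highest in WT, like the basal markers, and their part in the lower targets was not tested. Cdkn2a, whose Arf product blocks Mdm2, was at 15.9 ± 0.75 CPM in WT against 81.2 ± 2.1 CPM in PtP and 111.98 ± 1.8 CPM in TKO. Proliferation differed less between genotypes, with the 10 cell cycle genes summing to 807 to 841 CPM in WT, 709 to 724 CPM in PtP and 924 to 925 CPM in TKO.

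With the agents, Cdkn1a, Aen, Phlda3, Ccng1 and Zmat3, which were higher in WT than in PtP and TKO with DMSO, fell in WT. Plk2 fell as well, though it was lower in WT than in PtP and TKO with DMSO. YAPi_NOTCHi against DMSO in WT gave 3 targets higher, 6 lower and 1 not called, where 45.5% of all genes rose and 40.2% fell. All of the 6 falls were of at least 2-fold, a change called for 17.1% of genes. COMBO gave 3 higher and 7 lower, where 44.9% of all genes rose and 40.8% fell. The median log2 fold change of the targets was -1.25 and -0.93, against 0.11 and 0.09 for all genes. The same WT DMSO libraries serve both comparisons and the genotype comparisons with DMSO. A high WT level there and a fall from it are therefore not separate observations. In WT with either agent the 10 cell cycle genes all fell, from 807 to 841 CPM summed with DMSO to 25.6 to 26.7 CPM with YAPi_NOTCHi and 24 to 24.9 CPM with COMBO. The neuroendocrine markers went from at most 0.21 CPM summed to 181 to 193 CPM and 399 to 440 CPM, and whether these shifts of state bear on the targets was not tested.

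Cdkn1a fell furthest among the targets with YAPi_NOTCHi. In WT it was at 24.6, 23.8 and 24 CPM with YAPi_NOTCHi and at 58.4, 58.5 and 56 CPM with COMBO. No library came near the DMSO level of 242 CPM or more, and the log2 fold changes were -3.35 ± 0.03 and -2.09 ± 0.03 (edgeR adjusted p = 2.8e-46 and 1.1e-40). Aen was at 30.1, 33 and 32.5 CPM with YAPi_NOTCHi and at 42.9, 41.3 and 42.1 CPM with COMBO. It fell by 2.51 and 2.12 on the log2 scale. Phlda3 at 121, 120.4 and 117 CPM and Ccng1 at 141, 137 and 142 CPM with YAPi_NOTCHi fell by 1.61 and 1.13. Zmat3 fell by 1.36 with YAPi_NOTCHi but by 0.66 with COMBO. Plk2 fell by 1.54 with YAPi_NOTCHi and by 2.88 with COMBO, to 24.5, 23.7 and 24.4 CPM.

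Sesn1, Trp53inp1 and Eda2r rose with the agents in WT. Sesn1 went to 73.6, 72.9 and 69.8 CPM with YAPi_NOTCHi, from 17.7 to 18.8 CPM, a log2 fold change of 1.99 ± 0.04. Trp53inp1 went to 570.1, 552 and 598 CPM, a change of 1.83 ± 0.03, and with COMBO to 695, 670.3 and 677 CPM. Both were far above DMSO in every library. Eda2r was at 40.6, 41.5 and 43.2 CPM with YAPi_NOTCHi (0.14 ± 0.04) and at 74.9, 71.4 and 72.1 CPM with COMBO (0.94 ± 0.04). Mdm2 was at 128, 132 and 131 CPM with YAPi_NOTCHi, within the range of its DMSO libraries, and did not pass the test (0.02 ± 0.03, edgeR adjusted p = 0.58). Its partner Mdm4, which restrains p53 by binding it, went from 52.5 ± 0.56 CPM with DMSO to 351 ± 7.1 CPM with YAPi_NOTCHi and 356 ± 11 CPM with COMBO (SD, n = 3). Trp53 itself was at 91.2, 90.8 and 88.7 CPM with YAPi_NOTCHi (-0.91 ± 0.03).

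**Figure D3:**
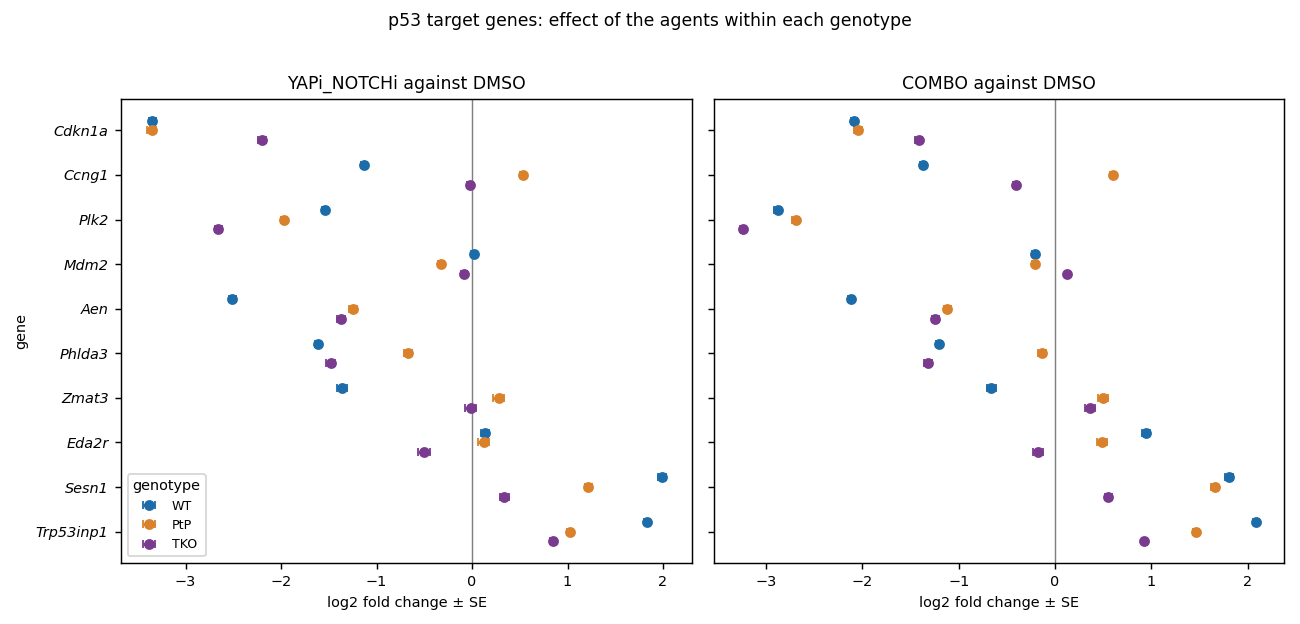
Log2 fold change (x axis) of each target gene (y axis) with YAPi_NOTCHi and with COMBO against DMSO, in WT, PtP and TKO organoids; whiskers are the SE of the fit. Cdkn1a, Aen and Plk2 lie left of 0 in all 3 genotypes and Trp53inp1 and Sesn1 right of 0, while Ccng1 and Zmat3 lie below -0.5 in WT only.

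In PtP and TKO the targets went both ways with the agents. In PtP, YAPi_NOTCHi gave 5 targets higher and 5 lower (44.9% of all genes rose, 40.6% fell), as did COMBO (44.8% and 40.2%). In TKO, YAPi_NOTCHi gave 2 higher, 6 lower and 2 not called (45.7% and 40.6%), and COMBO 4 higher and 6 lower (46.2% and 41%). Among these calls, the rise of Eda2r with YAPi_NOTCHi in PtP (0.12) was lost without any 1 of the 3 DMSO libraries or YAPi_NOTCHi replicate 1 or 2 (0.10 to 0.13). The fall of Mdm2 with YAPi_NOTCHi in TKO (-0.08) was lost without DMSO replicate 2 or any 1 of the 3 YAPi_NOTCHi libraries (-0.05 to -0.07), with RLE scaling and DESeq2 (-0.01 each) and in a fit to the compared groups (-0.05). The fall of Eda2r with COMBO in TKO (-0.18) was lost with RLE scaling and with DESeq2 (-0.11 each). Plk2 went from 216, 218 and 218 CPM in PtP with DMSO to 34.1, 32.8 and 33.5 CPM with COMBO (log2 -2.69 ± 0.03). In TKO it went from 206, 202 and 195 CPM to 21.3, 21.9 and 20.4 CPM (-3.24 ± 0.03), so in both genotypes the groups were far apart. Ccng1 parted the genotypes: in PtP it rose to 130.3, 120.1 and 129 CPM with YAPi_NOTCHi (0.54 ± 0.03), above every PtP library with DMSO. In TKO it was at 83.4, 89 and 84.5 CPM and did not pass (-0.02 ± 0.03), overlapping with DMSO. With COMBO it fell in TKO to 65.6, 66.2 and 65.7 CPM (-0.40 ± 0.03). Phlda3 was at 30.3, 32.5 and 30.8 CPM in TKO with YAPi_NOTCHi (-1.48 ± 0.04), against 57.1, 54.6 and 58.3 CPM in PtP (-0.67 ± 0.04). Sesn1 and Trp53inp1 rose in both, Sesn1 by 1.22 ± 0.04 in PtP and 0.34 ± 0.04 in TKO with YAPi_NOTCHi.

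The genotypes also differed from one another within each agent. With YAPi_NOTCHi, 1 target was higher and 9 lower in PtP than in WT, where 31.2% of all genes rose and 31.8% fell. In TKO 9 were lower and 1 not called, where 38.5% fell. With COMBO, 3 were higher and 7 lower in PtP (35.6% of all genes rose, 33% fell), and all 10 were lower in TKO (38.4% fell). Of those 10, Mdm2 was lower by the least, -0.07 ± 0.03. Its call was lost without TKO replicate 1 (-0.05) or 3 (-0.06) and with RLE scaling (-0.04, edgeR adjusted p = 0.25). For Aen with YAPi_NOTCHi the PtP libraries, at 29.4, 29.5 and 30.3 CPM, overlapped with WT and differed by -0.11 ± 0.04. That call was lost without PtP replicate 1 or 2 or WT replicate 2 or 3 (-0.07 to -0.10), and DESeq2 did not make it (adjusted p = 0.095). For Ccng1, PtP at 130.3, 120.1 and 129 CPM was close to WT, and with COMBO it was above WT (0.15 ± 0.03). Eda2r and Phlda3 kept a wide gap. With COMBO, Eda2r was at 74.9, 71.4 and 72.1 CPM in WT, while PtP was at 23.2, 23.5 and 22.2 CPM and TKO at 12.9, 12.1 and 13.2 CPM. With COMBO, Phlda3 was at 152, 166 and 157 CPM in WT, while PtP was at 79.9, 85.6 and 80.1 CPM and TKO at 34.8, 37.3 and 32.4 CPM. Each of these orders had no overlap between genotypes.

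For Cdkn1a, PtP differed from WT by -1.46 ± 0.03 with DMSO, -1.46 ± 0.06 with YAPi_NOTCHi and -1.41 ± 0.04 with COMBO on the log2 scale. With YAPi_NOTCHi it was at 9.52, 8.66 and 8.21 CPM in PtP, against 16.5, 18 and 16.8 CPM in TKO. TKO libraries therefore lay between PtP and WT, the reverse of their order with DMSO. The YAPi_NOTCHi effect differed between PtP and WT by -0.01 ± 0.06, which did not pass the test (edgeR adjusted p = 0.98), and between TKO and WT by 1.15 ± 0.06 (adjusted p = 6.3e-21). For Ccng1, Zmat3 and Aen the effect in PtP stood 1.67 ± 0.04, 1.64 ± 0.08 and 1.27 ± 0.05 above that in WT. With YAPi_NOTCHi their mean levels in PtP and WT were closer than with DMSO: 126 and 140 CPM, 34.6 and 28.2 CPM, and 29.8 and 31.9 CPM. These differences thus largely repeat the gap with DMSO, from the same libraries. Of all genes, 57.4% were called in the YAPi_NOTCHi effect of PtP minus WT, 68.8% in TKO minus WT and 52.6% in TKO minus PtP. For COMBO those shares were 59.8%, 69.5% and 56.9%. TKO kept its cell cycle genes under the agents, at 844 to 873 CPM summed with YAPi_NOTCHi and 1299 to 1329 CPM with COMBO, where PtP fell to 91.8 to 96.1 CPM and 52.4 to 54.7 CPM.

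In PRAD organoids the targets did not move as one. Among the single agents, YAPi gave 4 higher, 1 lower and 5 not called, where 35% of all genes rose and 26.9% fell. ARi gave 4 higher, 4 lower and 2 not called (27.1% rose, 27.4% fell), and NOTCHi 6 higher and 4 lower (26% and 28%). Among the pairs, ARi_YAPi gave 4 higher, 2 lower and 4 not called (39.7% and 30.5%) and ARi_NOTCHi 6 higher, 2 lower and 2 not called (35.1% and 33.3%). YAPi_NOTCHi and COMBO each gave 5 higher, 4 lower and 1 not called, where 40.2% and 41.1% of all genes rose and 35.1% and 38.7% fell. Without DMSO replicate 1 the count for YAPi_NOTCHi was 8, since Ccng1 lost its call (-0.08). Small changes in other arms also depended on the alternative. Ccng1 with ARi (-0.10) lost its call with RLE scaling (-0.08), and Ccng1 with YAPi (0.13) in a fit to the compared groups (0.09). Phlda3 with NOTCHi (0.15) lost it without DMSO replicate 1 (0.13), and Sesn1 with ARi_YAPi (0.13) without DMSO replicate 2 (0.11). In fits to the compared groups, Phlda3 with ARi (0.10) and Sesn1 with YAPi (-0.14) gained a call. All these arms share the same 3 DMSO libraries. The median of the 10 targets lay between 0.00 for ARi_YAPi and 0.32 for ARi_NOTCHi on the log2 scale. Cell type markers moved in the same arms, and their part in the targets' values was not tested. The basal markers summed to 15402 to 16102 CPM with DMSO, 31684 to 32138 CPM with NOTCHi and 30523 to 30824 CPM with ARi_NOTCHi, against 9080 to 9308 CPM with COMBO. Of the 4 basal markers, 3 rose and 1 was not called with NOTCHi, and 3 rose and 1 fell with ARi_NOTCHi. With COMBO 1 rose and 3 fell. The neuroendocrine markers were at most 0.657 CPM summed with DMSO, and reached 1852 to 1881 CPM with YAPi_NOTCHi and 2576 to 2639 CPM with COMBO. The cell cycle genes summed to 1395 to 1474 CPM with DMSO and were lowest with YAPi, ARi_NOTCHi and ARi_YAPi, at 711 to 732 CPM over those libraries. YAPi replicate 1 carries another lane number in its label than the rest of the table. It held 77790816 counts, against 26966387 and 28262843 in replicates 2 and 3.

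**Figure D4:**
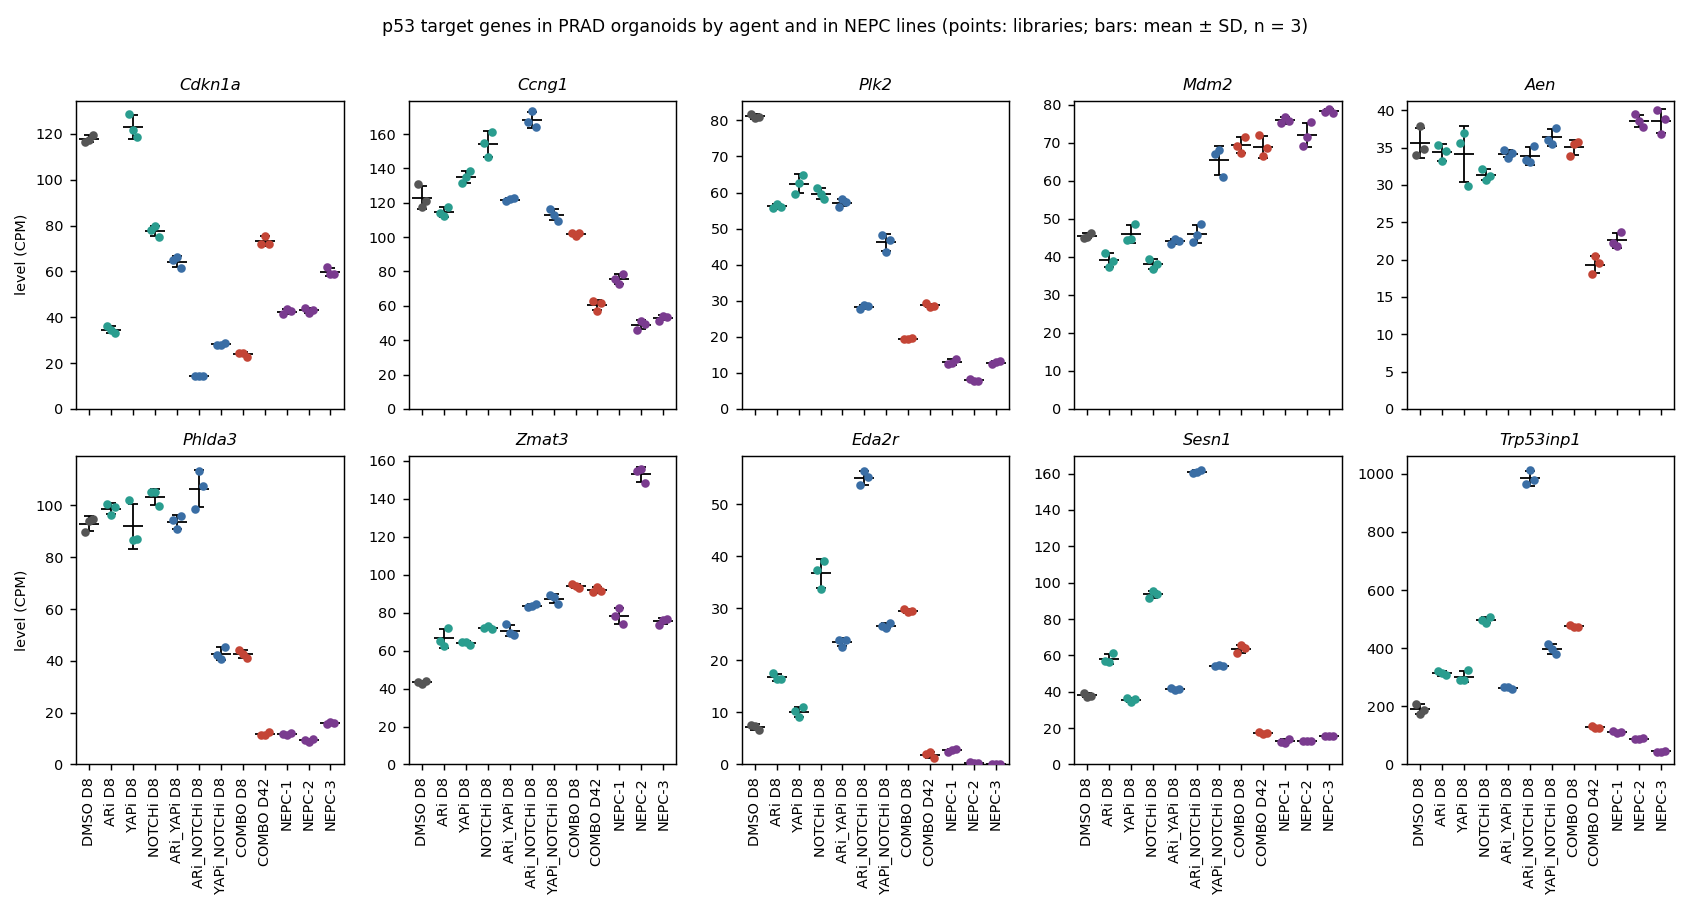
Levels of the 10 p53 target genes (CPM, y axis from 0, one panel a gene) in the 12 groups of the PRAD and NEPC table (x axis). Points are libraries, long dashes the mean and whiskers the SD over n = 3; Trp53inp1, Sesn1 and Eda2r peak with ARi_NOTCHi, where Trp53inp1 reaches 1012 CPM, and Phlda3 is at 8.76 to 16.3 CPM in COMBO at day 42 and the 3 NEPC lines.

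Cdkn1a was lower in 6 of the 7 agent arms at day 8. It was at 117, 118 and 119 CPM with DMSO, at 14.2, 14.5 and 14.2 CPM with ARi_NOTCHi and at 24.4, 24.5 and 22.7 CPM with COMBO. The log2 fold changes were -3.04 ± 0.05 and -2.30 ± 0.04 (edgeR adjusted p = 7.0e-40 and 1.6e-37). With YAPi alone it was at 129, 122 and 119 CPM and did not pass the test (0.07 ± 0.04). Without YAPi replicate 3 it was called (0.09), and with RLE scaling it was 0.12 (edgeR adjusted p = 0.0044). The effects of YAPi and NOTCHi on Cdkn1a did not add up on the log2 scale, with an interaction of -1.53 ± 0.06, and 59% of all genes were called in that interaction. Trp53inp1, Sesn1 and Eda2r were highest with ARi_NOTCHi. Trp53inp1 went from 208, 175 and 188 CPM with DMSO to 963, 1012 and 978 CPM (log2 2.37 ± 0.04). Sesn1 went from 39.1, 36.9 and 37.9 CPM to 160.4, 161 and 162 CPM (2.08 ± 0.04), and Eda2r from 7.61, 7.36 and 6.55 CPM to 53.7, 56.4 and 55.3 CPM (2.94 ± 0.09). None of the 3 genes overlapped with DMSO there. Phlda3 was at 42.4, 40.6 and 45.5 CPM with YAPi_NOTCHi and 44.3, 42.5 and 41.2 CPM with COMBO, against 89.6, 94.1 and 95 CPM with DMSO. It fell by 1.12 on the log2 scale in each. Zmat3 rose in every arm, from 43.5, 42.6 and 43.8 CPM to between 62.3 and 94.9 CPM.

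Aen stood apart from its course in WT organoids. In PRAD it was at 34, 37.8 and 34.8 CPM with DMSO and at 33.9, 35.5 and 35.7 CPM with COMBO, overlapping groups whose difference was -0.02 ± 0.06. NOTCHi alone gave a call, -0.18 ± 0.06, and with RLE scaling that was lost (-0.12, edgeR adjusted p = 0.076), as it was without DMSO replicate 2 (-0.13). Trp53 was at 15.4, 15.4 and 15.2 CPM with DMSO and at 31.2, 34.6 and 28.4 CPM with YAPi (1.03 ± 0.07). NOTCHi gave 31.7, 31.9 and 31 CPM (1.04 ± 0.07) and ARi_NOTCHi 26.7, 28.7 and 30.8 CPM (0.90 ± 0.07). ARi alone gave 20.3, 21 and 19.2 CPM, a smaller rise (0.39) that was also called. All these arms lay above DMSO without overlap. Trp53 was at 14.4, 14.1 and 13.4 CPM with COMBO and did not pass (-0.14 ± 0.08). Nor did it pass with ARi_YAPi (0.12) or YAPi_NOTCHi (0.01).

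From day 8 to day 42 on COMBO, 2 targets rose, 6 fell and 2 were not called, where 34.9% of all genes rose and 34.8% fell. Day 42 against DMSO gave 2 higher and 8 lower (41.2% and 43.3%). Eda2r went from 29.9, 29.2 and 29.5 CPM to 1.97, 2.32 and 1.25 CPM (log2 -3.98 ± 0.11). Trp53inp1 went from 479.7, 474 and 471 CPM to 133, 124 and 125 CPM (-1.90 ± 0.04), and Sesn1 from 61.5, 65.8 and 64 CPM to 17.6, 16.7 and 17.1 CPM (-1.90 ± 0.05). The groups were far apart in each. Phlda3 fell by 1.86 to 11.5, 11.4 and 12.4 CPM. Cdkn1a returned part of the way, to 72, 75.5 and 71.8 CPM (1.62 ± 0.04), below its DMSO level. Over the same interval the 4 basal markers went from 9080 to 9308 CPM summed to 2.1 to 2.35 CPM, and Trp63 reached 0.0225 ± 0.02 CPM. The neuroendocrine markers went from 2576 to 2639 CPM summed to 5164 to 5292 CPM. Whether this change of cells bears on the targets was not tested.

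The NEPC lines had low levels of most targets. Against PRAD with DMSO, the mean of the 3 lines was higher for 2 targets and lower for 8, of which 7 by at least 2-fold, where 42% of all genes rose, 43.8% fell and 23.7% fell by that much. The median log2 fold change of the targets was -1.31, against -0.02 for all genes. The SE and p-value of a mean of the lines rest on the spread between libraries of a group. They leave out the spread between the lines. The 4 basal markers summed to 15402 to 16102 CPM in PRAD with DMSO and to 0.695 to 6.48 CPM over the NEPC libraries. The neuroendocrine markers went from 0.115 to 0.657 CPM to 2927 to 4780 CPM, and the cell cycle genes from 1395 to 1474 CPM to 2258 to 2856 CPM. The part of these markers in the targets' values was not tested. Plk2 went from 81.8, 80.6 and 80.9 CPM to between 7.68 and 13.9 CPM in the 9 NEPC libraries (-2.89 ± 0.04). Phlda3 was at 8.76 to 16.3 CPM in those libraries (-2.95 ± 0.04), around its level of 11.4 to 12.4 CPM at day 42 on COMBO. The mean of the lines did not differ from day 42 beyond the test (0.03 ± 0.06, edgeR adjusted p = 0.70). The lines went both ways, however. NEPC-2 was below every day 42 library, at 8.76 to 9.84 CPM, and NEPC-3 above every one, at 15.5 to 16.3 CPM, while NEPC-1 overlapped with them. Cdkn1a was at 41.3, 43.5 and 42.6 CPM in NEPC-1, 44.1, 42 and 42.9 CPM in NEPC-2 and 61.8, 58.8 and 58.9 CPM in NEPC-3 (mean of the lines -1.30 ± 0.03). Mdm2 and Zmat3 were the genes that rose, by 0.73 ± 0.04 and 1.16 ± 0.04. Aen was called lower in the mean (-0.14 ± 0.05), a call that was lost without DMSO replicate 2 (-0.09) and with RLE scaling (-0.07, edgeR adjusted p = 0.13). The lines did not go one way: Aen was at 22.2, 21.8 and 23.7 CPM in NEPC-1 (-0.65 ± 0.06), below every DMSO library. It was at 39.5, 38.5 and 37.8 CPM in NEPC-2 and at 40.04, 36.9 and 38.9 CPM in NEPC-3, called 0.12 ± 0.06 higher in each. Those calls were lost without DMSO replicate 1 or 3, without NEPC-2 replicate 1 or 2 for that line and without NEPC-3 replicate 1 or 3 for the other (0.09 to 0.12). Against day 42 on COMBO, 2 targets were higher, 5 lower and 3 not called in the mean of the lines, where 33.2% of all genes rose and 31.7% fell.

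The 3 lines differed among themselves in several targets, and the widest gap on the log2 scale was in Eda2r, which was at 3 CPM or less. It was at 2.38, 2.7 and 3 CPM in NEPC-1, at 0.453, 0.279 and 0.24 CPM in NEPC-2 and at 0.0605, 0 and 0.0868 CPM in NEPC-3. NEPC-1 was above the others in every library, and the NEPC-3 libraries held only 2, 0 and 3 counts. The log2 fold change of NEPC-3 against PRAD with DMSO was -7.04 ± 0.27, and -7.67 without NEPC-3 replicate 3. Against the other lines it was -4.10 ± 0.43, and -4.74 without that replicate, where 60.4% of all genes were called. Zmat3 was highest in NEPC-2, at 155, 156 and 148 CPM against 73.6 to 82.6 CPM in the others (0.99 ± 0.03, 59.4% of all genes called). Trp53inp1 was lowest in NEPC-3, at 43.6, 44.1 and 47.6 CPM (-1.14 ± 0.04). Trp53 was at 15.5, 15.1 and 15 CPM in NEPC-1, 3.08, 3.14 and 2.94 CPM in NEPC-2 and 7.68, 7.68 and 8.01 CPM in NEPC-3, so the lines are ordered differently by it than by Cdkn1a.

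In TKOM organoids, suspension to day 30 against Matrigel gave 2 targets higher, 7 lower and 1 not called, where 38.3% of the 15733 genes tested rose and 38.9% fell. Of the falls, 5 were of at least 2-fold, a change called for 16% of genes. Phlda3 was at 33.9, 35.4 and 35 CPM in Matrigel and at 0.298, 0.0311 and 0.125 CPM in suspension, from 11, 1 and 4 counts. Eda2r was at 12.8, 13.3 and 12.4 CPM in Matrigel and at 0.0814, 0.0623 and 0.0624 CPM in suspension, from 3, 2 and 2 counts. Both were thus at or near 0 counts in suspension, with log2 fold changes of -7.75 ± 0.17 for Phlda3 and -7.46 ± 0.21 for Eda2r (edgeR adjusted p = 7.3e-17 and 1.8e-15). Without suspension replicate 1 the value for Phlda3 was -8.74.

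**Figure D5:**
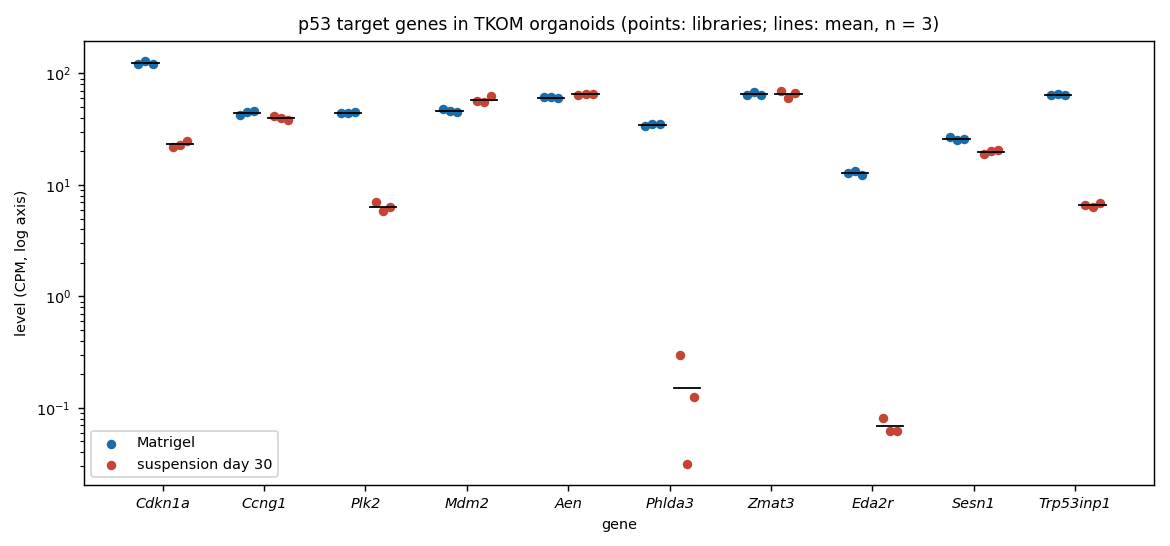
Levels of the 10 p53 target genes (CPM, log y axis) in TKOM organoids in Matrigel and in suspension at day 30. Points are libraries and lines the mean of n = 3; Phlda3 and Eda2r drop from between 12.4 and 35.4 CPM to below 0.3 CPM, while Zmat3, Aen and Ccng1 lie close together in both.

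Trp53inp1 was at 63.5, 65.8 and 64.1 CPM in Matrigel and at 6.62, 6.38 and 6.93 CPM in suspension (log2 -3.28 ± 0.05). Plk2 was at 44.3, 44 and 44.9 CPM against 6.97, 5.85 and 6.36 CPM (-2.79 ± 0.06), and Cdkn1a at 122, 129.7 and 122 CPM against 22.1, 22.7 and 24.6 CPM (-2.43 ± 0.05). None of these overlapped. The other targets moved by less than 0.4 on the log2 scale, Mdm2 upward (0.32 ± 0.05) and Sesn1 downward (-0.39 ± 0.06). Zmat3 at 64.1, 68.7 and 64.5 CPM against 69.3, 60.9 and 66.3 CPM overlapped and did not pass (0.00 ± 0.05, edgeR adjusted p = 0.95). Aen was called with a difference of 0.10 ± 0.04, which was not called without Matrigel replicate 3 or suspension replicate 2 or 3 (0.08 to 0.09), nor by DESeq2 (adjusted p = 0.069). The basal markers summed to 2509 to 2717 CPM in Matrigel and to 30.4 to 34.9 CPM in suspension, with Trp63 at 0 in all 3 suspension libraries. The 3 neuroendocrine markers measured went from 0.0322 to 0.229 CPM summed to 182 to 187 CPM, and the 10 cell cycle genes from 2154 to 2178 CPM to 2434 to 2463 CPM. Pecam1, an endothelial marker named after its value was seen and the one of 3 measured, was at 0.312 ± 0.086 CPM in Matrigel and 12.8 ± 0.26 CPM in suspension, and the part of these markers in the targets' values was not tested.

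The 10 targets also varied among themselves over the 9 groups of the genotype table. As a description over 9 group means that share libraries' scaling, the Pearson correlation of a target's log2 CPM with the mean of the 10 was 0.981 for Phlda3, 0.851 for Eda2r, 0.840 for Ccng1, 0.755 for Mdm2, 0.721 for Zmat3, 0.689 for Aen and 0.676 for Cdkn1a. It was 0.334 for Plk2, 0.179 for Trp53inp1 and -0.0651 for Sesn1. That mean includes the target itself, which raises these values, so they are not comparable with the values of other genes. Among 9979 other genes, those whose 9 group means followed the mean of the targets most closely were Ercc5, a DNA repair nuclease, at 0.991, Sox15 at 0.988, Lemd2 at 0.982, D16Ertd472e at 0.977, Slc35d1 at 0.974, Gna15 at 0.974, P2ry1 at 0.971 and Zscan12 at 0.970. These were the 8 highest of all candidates, so they are high by choice.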

How the data were processed

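The 3 deposited tables hold estimated counts per gene and library, which per the labels rest on build mm10 (GRCm38). Which aligner, counter and annotation made them is not given in the sources used here. Expected counts as the authors deposited them were not whole for 40.8% to 46.3% of values (tolerance 0.01), so they were rounded. Lines without a gene name (10, 11 and 12, at most 0.0115% of a library) were left out and lines sharing a name summed. Columns were matched through library names, with 0 left unmatched.

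Each table was fitted alone over all its groups with edgeR 4.0.16 (R 4.3.3): filterByExpr, TMM scaling, a quasi-likelihood F-test, 2-sided, with Benjamini-Hochberg adjustment over all genes kept and a threshold of 0.05. There were 43 comparisons. The error shown with a log2 fold change is an SE, |log2 fold change| divided by the square root of F. Tests were tried on simulated data. DESeq2 1.42.0, RLE scaling, no filter, fits to the compared groups, a replicate block and leaving out each library were alternatives. The members and gene lists were chosen with earlier results of these data known. Named genes were the members, Trp53, the regulators, other targets with large called changes, and the 8 genes of most like pattern; Bax, Fas and Pecam1 were picked after their values were seen. Replicate pairs differed by more than sampling noise, so none was counted as 1 sample.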

Additional observations from a re-analysis of the deposited data

Results flagged for a closer look

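What singles out the values here is that the effect of an agent on a target differed between genotypes by the interaction term of the edgeR fit (adjusted p under 0.05). Each value is a difference between 2 log2 fold changes against DMSO, the effect in the first genotype minus that in the second. The interactions of an agent share libraries. All of them also use the DMSO libraries of the genotype comparisons, so a gap between genotypes with DMSO enters each value. Groups of 3 are too small for a test of single outlying libraries. Of all genes tested, 57.4%, 68.8% and 52.6% were called for YAPi_NOTCHi in PtP minus WT, TKO minus WT and TKO minus PtP, and 59.8%, 69.5% and 56.9% for COMBO in the same order.

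For Cdkn1a, the inhibitor of cyclin-dependent kinases, the difference with YAPi_NOTCHi was 1.15 for TKO minus WT and 1.16 for TKO minus PtP. With COMBO it was 0.67 for TKO minus WT and 0.63 for TKO minus PtP. TKO lost less Cdkn1a than either other genotype. For Ccng1, cyclin G1, the difference with YAPi_NOTCHi was 1.67 for PtP minus WT, 1.11 for TKO minus WT and -0.56 for TKO minus PtP. The COMBO value was 1.97 for PtP minus WT, 0.97 for TKO minus WT and -1.002 for TKO minus PtP. Ccng1 fell in WT with both agents and rose in PtP. For Plk2, the polo-like kinase, the difference with YAPi_NOTCHi was -0.43 for PtP minus WT, -1.12 for TKO minus WT and -0.69 for TKO minus PtP. Under COMBO the difference was 0.18 for PtP minus WT, -0.36 for TKO minus WT and -0.55 for TKO minus PtP. Plk2 fell most on the log2 scale in TKO. For Mdm2, the ligase that degrades p53, the difference with YAPi_NOTCHi was -0.34 for PtP minus WT, -0.10 for TKO minus WT and 0.24 for TKO minus PtP. With COMBO the difference was 0.33 for TKO minus WT and 0.34 for TKO minus PtP. The values for Mdm2 are small beside those for Ccng1.

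For Aen, the apoptotic nuclease, the difference with YAPi_NOTCHi was 1.27 for PtP minus WT and 1.14 for TKO minus WT. COMBO gave 1.00 for PtP minus WT, 0.88 for TKO minus WT and -0.12 for TKO minus PtP. Aen fell more in WT than in the other genotypes, from a higher level with DMSO. For Phlda3, the competitor of Akt, the difference with YAPi_NOTCHi was 0.94 for PtP minus WT, 0.13 for TKO minus WT and -0.81 for TKO minus PtP. For COMBO the difference came to 1.07 for PtP minus WT, -0.11 for TKO minus WT and -1.19 for TKO minus PtP. Phlda3 fell least in PtP on the log2 scale. For Eda2r, the EDA-A2 receptor, the difference with YAPi_NOTCHi was -0.64 for TKO minus WT and -0.63 for TKO minus PtP. Under COMBO it was -0.46 for PtP minus WT, -1.12 for TKO minus WT and -0.66 for TKO minus PtP. Eda2r rose in WT and fell in TKO, where the COMBO fall (-0.18) lost its call with RLE scaling and with DESeq2 (-0.11 each).

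For Zmat3, the RNA-binding zinc finger protein, the difference with YAPi_NOTCHi was 1.64 for PtP minus WT, 1.35 for TKO minus WT and -0.29 for TKO minus PtP. With COMBO, the value was 1.16 for PtP minus WT and 1.02 for TKO minus WT. Zmat3 likewise fell in WT with both and rose in PtP. For Sesn1, sestrin 1, the difference with YAPi_NOTCHi was -0.77 for PtP minus WT, -1.65 for TKO minus WT and -0.88 for TKO minus PtP. COMBO differences were -0.15 for PtP minus WT, -1.25 for TKO minus WT and -1.10 for TKO minus PtP. The rise of Sesn1 was smallest in TKO. For Trp53inp1, the autophagy-linked stress protein, the difference with YAPi_NOTCHi was -0.81 for PtP minus WT, -0.99 for TKO minus WT and -0.17 for TKO minus PtP. The difference with COMBO was -0.62 for PtP minus WT, -1.15 for TKO minus WT and -0.53 for TKO minus PtP. The rise of Trp53inp1 was largest in WT.

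Some of the small differences were close to the threshold, and their calls were lost when any of several libraries was left out. The COMBO difference of Aen for TKO minus PtP lost its call (-0.13 to -0.09) without PtP_COMBO replicate 2 or 3, PtP_DMSO replicate 2 or 3, TKO_COMBO replicate 2 or 3 or TKO_DMSO replicate 1 or 2. The YAPi_NOTCHi difference of Mdm2 for TKO minus WT lost its call (-0.10 to -0.07) without TKO_DMSO replicate 1 or 2 or 3, TKO_YAPi_NOTCHi replicate 1 or 2 or 3, WT_DMSO replicate 2 or 3 or WT_YAPi_NOTCHi replicate 2. The COMBO difference of Phlda3 for TKO minus WT lost its call (-0.12 to -0.08) without TKO_COMBO replicate 1 or 3, TKO_DMSO replicate 1 or 3, WT_COMBO replicate 2 or WT_DMSO replicate 2. The YAPi_NOTCHi difference of Phlda3 for TKO minus WT lost its call (0.11 to 0.13) without TKO_DMSO replicate 2 or 3, TKO_YAPi_NOTCHi replicate 2, WT_DMSO replicate 1 or 3 or WT_YAPi_NOTCHi replicate 3. The COMBO difference of Sesn1 for PtP minus WT lost its call (-0.14 to -0.12) without PtP_COMBO replicate 3, PtP_DMSO replicate 3, WT_COMBO replicate 2 or WT_DMSO replicate 2 or 3. With RLE scaling and with DESeq2, the COMBO differences of Phlda3 for TKO minus WT, Sesn1 for PtP minus WT and Aen for TKO minus PtP and the YAPi_NOTCHi difference of Mdm2 for TKO minus WT also lost their calls.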

How the results depend on the processing

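The number of targets called in each of the 11 comparisons fixed in the design stayed within 1.5 times its value under every alternative run. Leaving out 1 library at a time gave 3 to 5 for TKO against PtP with DMSO, 8 to 9 for TKOM suspension and for PRAD YAPi_NOTCHi, 9 to 10 for the NEPC mean and for the COMBO effect in TKO minus WT, and no change in the others. Of 430 log2 fold changes, RLE scaling reversed 13, DESeq2 13, no filter 1, fits to the compared groups 5 and a replicate block 0, and those alternatives ended 11, 14, 0, 12 and 1 calls. Leave-one-out reversed 47 of 3210 values, and 86 of those values lost their call. A call is counted there once for each library whose omission ended it. Every reversal was of a value that had not passed the test, and the cause was not tested. No scaling moved the median of all genes by over 0.1.

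Reversed values with RLE scaling were 0.0125 for Aen PRAD COMBO against DMSO, 0.000539 for Aen PRAD YAPi against DMSO, 0.0244 for Ccng1 PRAD ARi_YAPi against DMSO, -0.0101 for Ccng1 TKO against PtP in DMSO, 0.0444 for Ccng1 YAPi_NOTCHi against DMSO in TKO, 0.0169 for Cdkn1a YAPi_NOTCHi effect PtP minus WT, 0.00874 for Eda2r YAPi_NOTCHi effect PtP minus WT, 0.0307 for Mdm2 COMBO effect PtP minus WT, 0.0434 for Mdm2 PRAD COMBO day 42 against day 8, 0.0497 for Phlda3 PRAD YAPi against DMSO, -0.0799 for Plk2 PRAD YAPi by NOTCHi interaction, 0.0231 for Zmat3 PRAD COMBO day 42 against day 8 and 0.0565 for Zmat3 YAPi_NOTCHi against DMSO in TKO. With DESeq2 the reversed values were 0.0126 for Aen PRAD COMBO against DMSO, 0.000744 for Aen PRAD YAPi against DMSO, 0.0243 for Ccng1 PRAD ARi_YAPi against DMSO, -0.00992 for Ccng1 TKO against PtP in DMSO, 0.0442 for Ccng1 YAPi_NOTCHi against DMSO in TKO, 0.0164 for Cdkn1a YAPi_NOTCHi effect PtP minus WT, 0.00872 for Eda2r YAPi_NOTCHi effect PtP minus WT, 0.031 for Mdm2 COMBO effect PtP minus WT, 0.0434 for Mdm2 PRAD COMBO day 42 against day 8, 0.0478 for Phlda3 PRAD YAPi against DMSO, -0.0771 for Plk2 PRAD YAPi by NOTCHi interaction, 0.0232 for Zmat3 PRAD COMBO day 42 against day 8 and 0.0519 for Zmat3 YAPi_NOTCHi against DMSO in TKO. In fits to the compared groups, reversed values were 0.0263 for Aen PRAD COMBO against DMSO, 0.0117 for Ccng1 YAPi_NOTCHi against DMSO in TKO, -0.0355 for Mdm2 PRAD YAPi against DMSO, -0.0257 for Phlda3 PRAD ARi_YAPi against DMSO and 0.0228 for Zmat3 YAPi_NOTCHi against DMSO in TKO. Without a filter the value for Phlda3 PRAD YAPi against DMSO was 0.00123.

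Leaving out 1 library at a time gave ranges across 0: -0.0507 to 0.0274 for Aen PRAD COMBO against DMSO, -0.0999 to 0.0244 for Aen PRAD YAPi against DMSO, -0.0185 to 0.00897 for Aen TKO against PtP in DMSO, -0.0466 to 0.0328 for Ccng1 PRAD ARi_YAPi against DMSO, -0.0273 to 0.0276 for Ccng1 TKO against PtP in DMSO, -0.0352 to 0.0221 for Ccng1 YAPi_NOTCHi against DMSO in TKO, -0.0453 to 0.0279 for Cdkn1a YAPi_NOTCHi effect PtP minus WT, -0.549 to 0.0871 for Eda2r NEPC-2 against the other 2 lines, -0.0441 to 0.011 for Eda2r YAPi_NOTCHi effect PtP minus WT, -0.0357 to 0.0236 for Mdm2 COMBO effect PtP minus WT, -0.0211 to 0.0529 for Mdm2 PRAD ARi_NOTCHi against DMSO, -0.0408 to 0.0202 for Mdm2 PRAD COMBO day 42 against day 8, -0.0293 to 0.0386 for Mdm2 PRAD YAPi against DMSO, -0.0129 to 0.0341 for Phlda3 PRAD ARi_YAPi against DMSO, -0.0956 to 0.0372 for Phlda3 PRAD YAPi against DMSO, -0.0231 to 0.054 for Plk2 PRAD YAPi by NOTCHi interaction, -0.00456 to 0.0567 for Sesn1 TKO against PtP in DMSO, -0.055 to 0.0442 for Zmat3 Suspension D30 against Matrigel, -0.0404 to 0.0761 for Zmat3 TKO against PtP in DMSO and -0.0435 to 0.0331 for Zmat3 YAPi_NOTCHi against DMSO in TKO.

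The pairing by replicate number was not clear: correlations of same-numbered libraries ran from -0.119 to 0.135 in the genotype table, -0.323 to 0.287 in the PRAD and NEPC table and -0.242 to 0.0216 in the TKOM table, and 16 of 27, 9 of 36 and 1 of 6 libraries were closest to their own number. Since not every pair's correlation was over 0.1, the numbers were not taken to pair the samples, though the 16 of 27 in the genotype table are a hint of pairing there. The replicate block left all 11 counts of called targets as they were. It ended the call of Aen in the COMBO effect of TKO minus PtP (-0.11, edgeR adjusted p = 0.051). Few counts limit Phlda3 and Eda2r in suspension and Eda2r in NEPC-3.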
